A study of Mus musculus with 4 samples.

Results

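RNA levels of imprinted genes were compared between MUT_CTCF and WT_CTCF mESCs. The set was chosen by name: 49 mouse genes that are known to be imprinted or to lie in imprinted domains, sorted here into 21 domains. Of these, 47 were found in the count table of 37620 genes, and 43 of the 47 passed edgeR's filter on low counts, which left 16264 genes for testing in all. Kcnq1ot1 and Peg13 had no entry under these names in the annotation and were not analysed here. Both lines are mouse embryonic stem cells in which endogenous CTCF, tagged with an auxin-inducible degron, was depleted by 2 days of auxin at 0.5 mM. A vector supplied wild-type CTCF to WT_CTCF cells and CTCF mutated at T668, where it can no longer be O-GlcNAcylated, to MUT_CTCF cells. The cells were grown with serum and LIF. Each line was 1 picked clone, so the mutation and the clone cannot be told apart, and each had 2 libraries, described as biological replicates. Total counts per library ran from 40524694 to 40977464. Ctcf itself had 18273 and 18625 counts in WT_CTCF and 18954 and 19233 in MUT_CTCF, without separating endogenous from vector-borne transcripts, and its log2 fold change of 0.044 (SE, the standard error, 0.028) did not pass (adjusted p = 0.499, edgeR's quasi-likelihood test).

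Genomic imprinting restricts expression of a gene to the allele inherited from one parent. Imprinted genes lie in clusters, and each cluster is governed by an imprinting control region whose DNA is methylated on one parental allele only. At the H19-Igf2 domain CTCF binds the unmethylated maternal control region upstream of H19 and insulates Igf2 from enhancers on the far side of H19. On the paternal allele methylation keeps CTCF away, and Igf2 is expressed while H19 is silent. Many imprinted genes control growth of the embryo and placenta, and imprinted expression in cultured mESCs is known to vary between clones. The counts used here add both alleles of a gene, so they measure its total RNA and not its imprinting.

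Matches to the CTCF motif upstream of H19 are shown because the H19-Igf2 insulator is the best known action of CTCF at an imprinted locus. A core of the CTCF motif, with a length of 14 bases of which 10 are fixed, was searched on both strands of the mm9 genome, in the 5 kb before the annotated start of every gene. Upstream of H19 (chr7:149761434-149764048, minus strand) there were 4 matches, all on the strand of H19, with centres 2.17, 2.63, 3.65 and 3.90 kb before its start. Each is given 5′ to 3′ on the minus strand with 20 flanking bases on either side, and the capitals mark the motif.
chr7:149766194-149766247: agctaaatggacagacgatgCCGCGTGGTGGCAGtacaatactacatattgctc
chr7:149766649-149766702: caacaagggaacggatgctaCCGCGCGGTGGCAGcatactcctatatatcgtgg
chr7:149767675-149767728: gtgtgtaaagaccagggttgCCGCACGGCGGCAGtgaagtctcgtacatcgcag
chr7:149767919-149767972: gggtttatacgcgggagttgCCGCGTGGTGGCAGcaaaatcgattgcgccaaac
Of 37310 genes, 2.07% held at least 1 match in this window and 3 genes held 3 or more. Among the 47 imprinted genes, 3 held a match there, namely H19, Cdkn1c and Magel2. The match before Cdkn1c, in the Kcnq1 domain, lay 3.04 kb from its start, again on the minus strand.
chr7:150649963-150650016: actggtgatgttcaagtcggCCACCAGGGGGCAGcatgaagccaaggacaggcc
A match describes the letters of the genome and is not a measured binding site. The motif was supplied as a search pattern and not derived from these data, and CTCF binding upstream of H19 was already known. The counts of matches are therefore no test of H19.

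Of the 43 tested imprinted genes, 1 passed the test over all genes. Grb10 rose in MUT_CTCF mESCs at an adjusted p of 0.00161, where 1.56% of all tested genes rose, and edgeR called 0 imprinted genes lower, where 1.61% of all tested genes fell. The 1 call is 2.33% of the tested imprinted genes, against 3.17% of all 16264 tested genes. The study's own limits were a fold change above 2 and an unadjusted p under 0.05. With these, edgeR called 0 of 43, against 1.3% of all tested genes, and DESeq2 called 0 as well. At an unadjusted p under 0.05 alone, 9 of 43 were counted (20.9%), against 15.3% of all tested genes. The 9 were Ascl2, Dlk1, Peg12, Copg2 and Grb10, which were higher in MUT_CTCF (11.6%, against 7.61% of all tested genes), and Cd81, Tssc4, Peg10 and Impact, which were lower (9.3%, against 7.65%). The normalized counts of the lines did not overlap in 25 of 43 imprinted genes (58.1%), against 44.6% of all tested genes, with MUT_CTCF above WT_CTCF in 14 and below it in 11. The median log2 fold change was -0.0041 over the 43 genes and 0.0034 over all tested genes. The quartiles were -0.12 and 0.13 for the imprinted genes and -0.091 and 0.13 for all tested genes. The median absolute log2 fold change was 0.128 for the imprinted genes and 0.106 for all tested genes. Among genes with a mean of at least 1000 counts it was 0.103 for the imprinted genes and 0.057 for all tested genes. For 32 of the 43, the 95% interval of the log2 fold change lay within 0.58 of 0 on either side, which is a change of less than 1.5-fold. The share was 74.4%, against 64.7% of all tested genes. The interval lay within this range for all 17 imprinted genes with a mean of at least 1000 counts, as for 99.9% of all tested genes of that abundance. It did so for none of the 7 imprinted genes with a mean under 100 counts. The data therefore bound changes tightly for the abundant imprinted genes and poorly for those with few reads. With 2 libraries in each line, the smallest two-sided p of an exact permutation test is 0.333, and the edgeR p-values measure only the spread between these samples, pooled over genes.

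**Figure D1:**
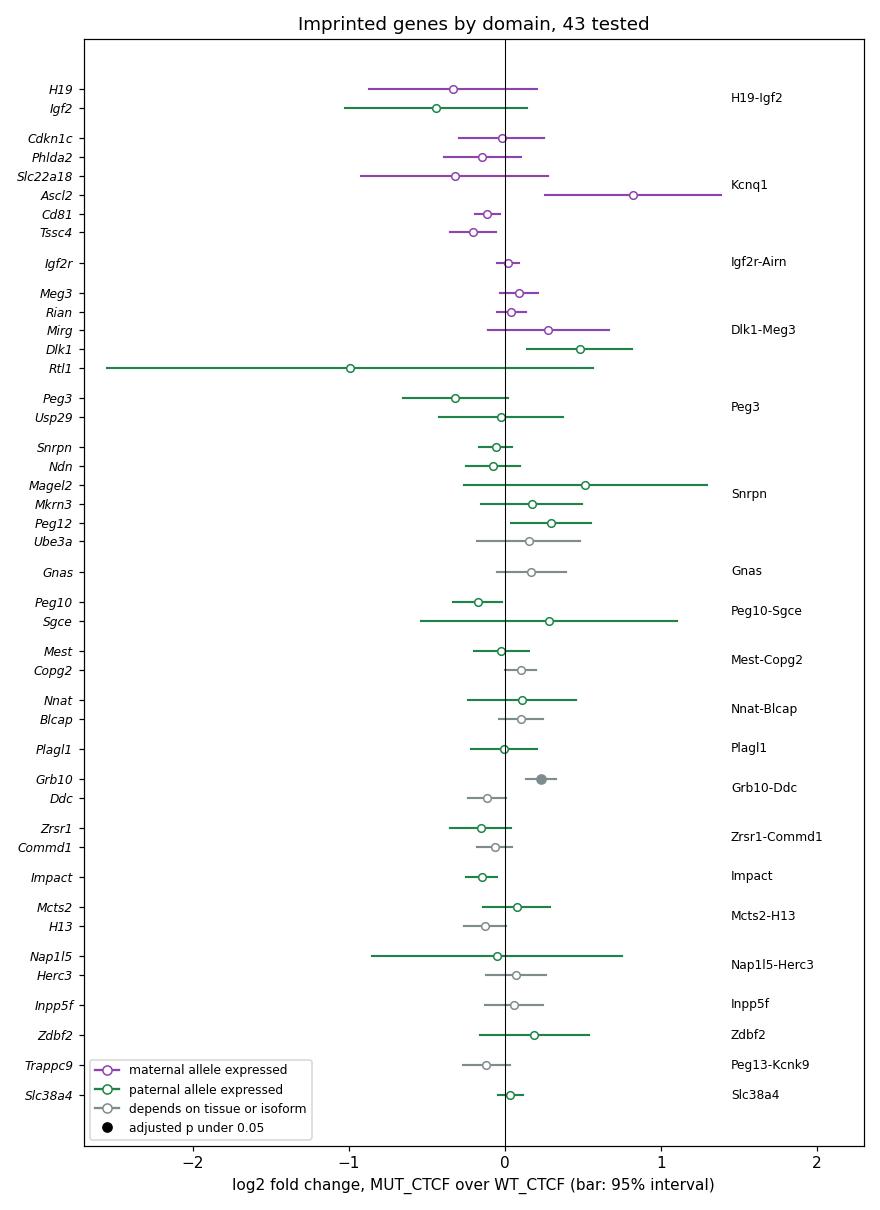
Log2 fold change of MUT_CTCF over WT_CTCF (horizontal axis) for the 43 tested imprinted genes, grouped by domain, with bars for the 95% interval. Colours give the allele known to be expressed, which was not measured in these cells, and a filled point marks an adjusted p under 0.05. Most points sit near 0, Grb10 (0.23) is the only filled one, and the widest bar belongs to Rtl1, which had at most 20 counts in a library.

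H19, a maternally expressed noncoding RNA, had 109 and 116 counts in WT_CTCF and 67 and 112 in MUT_CTCF. Its MUT_CTCF libraries stood further apart than its WT_CTCF libraries, and the normalized counts of the lines overlapped. Igf2 (chr7:149836673-149852721, minus strand), the paternally expressed insulin-like growth factor, had 106 and 98 counts in WT_CTCF and 100 and 51 in MUT_CTCF. The library that was low for H19 was MUT_CTCF replicate 1, and the library that was low for Igf2 was MUT_CTCF replicate 2. The log2 fold change of H19 was -0.33 (SE 0.269, adjusted p = 0.628), with a 95% interval from -0.87 to 0.21. That of Igf2 was -0.44 (SE 0.292, adjusted p = 0.515), with an interval from -1.03 to 0.14. Neither passed, and both intervals include a fall of 1.5-fold but no rise of that size. The value of H19 went from -0.0023 without MUT_CTCF replicate 1 to -0.76 without MUT_CTCF replicate 2, and that of Igf2 from -0.99 to -0.045 without the same libraries, so 1 library decides each value. Per exon length both were low in mESCs in RPKM (reads per kb of merged exon, scaled to library size), with a mean of 1.04 RPKM for H19 and 0.396 for Igf2. Ins2, the insulin gene next to Igf2, and Nctc1, a noncoding RNA beyond H19, had 0 counts in every library. Mrpl23, a mitochondrial ribosomal protein gene 34.8 kb from H19, did not pass, at a log2 fold change of 0.22 (adjusted p = 0.277).

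**Figure D2:**
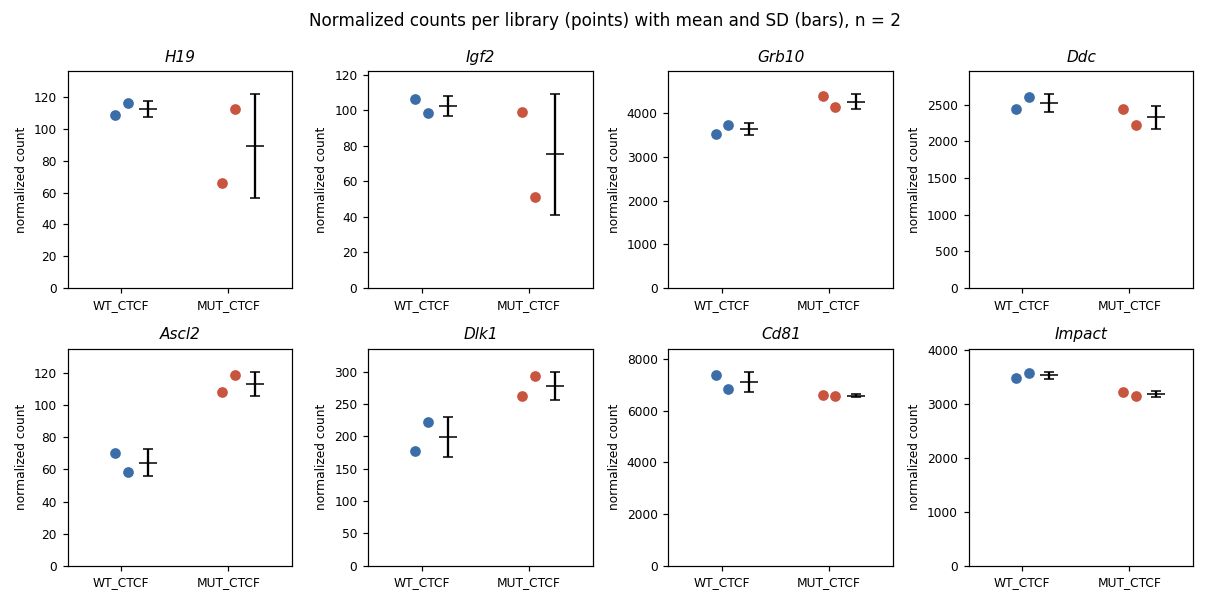
Normalized counts (counts scaled to the mean library) of 8 imprinted genes in the 2 libraries of each line, with the mean and SD beside them and each axis starting at 0. H19 and Igf2 overlap between the lines, Grb10, Ascl2 and Dlk1 lie higher in both MUT_CTCF libraries, and Cd81 and Impact lie lower in both.

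The Kcnq1 domain adjoins H19-Igf2 on chromosome 7, and its maternally expressed protein-coding genes are silenced on the paternal allele by the noncoding RNA Kcnq1ot1. None of its 6 tested genes passed. Ascl2, a transcription factor needed for the placental trophoblast, had 70 and 58 counts in WT_CTCF and 109 and 118 in MUT_CTCF. MUT_CTCF was higher in both libraries, and the value of 0.82 on the log2 scale was the highest of all tested imprinted genes. It did not pass (SE 0.282, adjusted p = 0.107, 95% interval 0.25 to 1.39). Cd81, which encodes a tetraspanin of the cell surface, had the most counts of the 6 tested imprinted genes of the domain, with 7383 and 6823 counts in WT_CTCF and 6676 and 6524 in MUT_CTCF. Its log2 fold change was -0.11 (SE 0.039, adjusted p = 0.115). Its neighbour Tssc4 had 1454 and 1654 counts in WT_CTCF and 1340 and 1368 in MUT_CTCF, a log2 fold change of -0.20 (SE 0.074, adjusted p = 0.128). Both genes lay lower in both MUT_CTCF libraries without passing, at -0.055 for Cd81 without WT_CTCF replicate 1 and -0.11 for Tssc4 without WT_CTCF replicate 2. In Tssc4, 12.5% of the exon positions are shared with Trpm5 on the other strand. Cdkn1c, the cyclin-dependent kinase inhibitor p57, had 396 and 396 counts in WT_CTCF and 329 and 454 in MUT_CTCF. The MUT_CTCF libraries lay on either side of the WT_CTCF libraries, with a log2 fold change of -0.021 (SE 0.137). Phlda2, which restrains growth of the placenta, and Slc22a18, a membrane transporter gene, had log2 fold changes of -0.15 and -0.32 (adjusted p = 0.648 and 0.687). Each rests largely on 1 library, since Phlda2 was at -0.023 without WT_CTCF replicate 1 and Slc22a18 at -0.065 without WT_CTCF replicate 2.

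**Figure D3:**
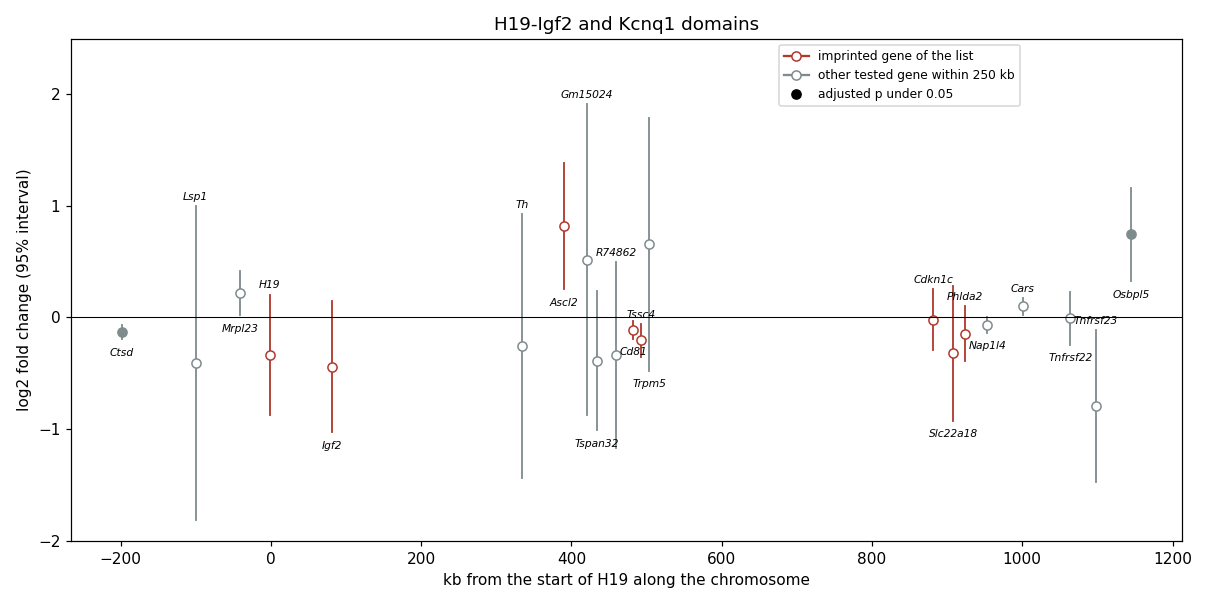
Log2 fold change with its 95% interval (vertical axis) against distance from the start of H19 in kb (horizontal axis), for the tested imprinted genes of the H19-Igf2 and Kcnq1 domains (red) and the other tested genes within 250 kb of them (grey). The 2 filled points are grey and lie at the ends of the region, Ctsd below 0 (-0.13) and Osbpl5 above it (0.74).

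In the Dlk1-Meg3 domain of chromosome 12, the maternal allele gives the noncoding RNAs Meg3, Rian and Mirg, of which Rian hosts small nucleolar RNAs and Mirg hosts microRNAs, and the paternal allele gives the protein-coding genes Dlk1 and Rtl1. Rian was the member with most counts, at 3751 and 3863 in WT_CTCF and 4018 and 3855 in MUT_CTCF. Meg3 had 2113 and 2259 in WT_CTCF and 2305 and 2366 in MUT_CTCF. Their log2 fold changes were 0.042 (SE 0.047) and 0.090 (SE 0.060), and the 95% intervals reached no higher than 0.14 and 0.21. Mirg, with 147 and 166 counts in WT_CTCF and 187 and 194 in MUT_CTCF, had a log2 fold change of 0.28 (adjusted p = 0.550). The 3 noncoding RNAs therefore lay higher in both MUT_CTCF libraries after normalization, as 22.3% of all tested genes did, and none of them passed. For Rian the lines barely separated, at 3873 in MUT_CTCF replicate 2 against 3872 in WT_CTCF replicate 2 after normalization. Dlk1, a transmembrane protein related to NOTCH ligands, had 177 and 221 counts in WT_CTCF and 265 and 292 in MUT_CTCF. Its log2 fold change was 0.48 (SE 0.168, adjusted p = 0.112, 95% interval 0.14 to 0.82). Rtl1, a gene derived from a retrotransposon, had 12 and 20 counts in WT_CTCF and 6 and 10 in MUT_CTCF, too few to bound its change (95% interval -2.55 to 0.56). Dio3, the thyroid hormone deiodinase gene at the far end of this domain and not one of the 49, fell from 784 and 783 counts in WT_CTCF to 647 and 595 in MUT_CTCF, a log2 fold change of -0.34 (SE 0.100, adjusted p = 0.0408).

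Grb10 encodes an adaptor protein that dampens signalling from the insulin and IGF1 receptors, and it is expressed from the maternal allele in most tissues and from the paternal allele in neurons. It lies on chromosome 11 (chr11:11830511-11938686, minus strand of mm9), and none of its exon positions is shared with another annotated gene. Its counts were 3528 and 3718 in WT_CTCF and 4425 and 4118 in MUT_CTCF, or 3630 ± 137 and 4262 ± 176 (SD, n = 2) once normalized. The lines did not overlap. The log2 fold change was 0.23 (SE 0.048, adjusted p = 0.00161, 95% interval 0.14 to 0.33), which is 1.17-fold. Leaving out a library kept the value between 0.19 and 0.27, but the call was lost without WT_CTCF replicate 1 (adjusted p = 0.107), without MUT_CTCF replicate 1 (adjusted p = 0.484) and without MUT_CTCF replicate 2 (adjusted p = 0.399), and also when genes with low counts were kept (adjusted p = 0.194). Its neighbour Ddc, the aromatic amino acid decarboxylase, whose imprinting is known in the heart, had 2430 and 2601 counts in WT_CTCF and 2461 and 2205 in MUT_CTCF. Its log2 fold change was -0.11 (SE 0.059, adjusted p = 0.355), with the libraries of the lines overlapping. Cobl, an actin nucleator gene 197.9 kb from Grb10, had between 18164 and 18620 counts in all 4 libraries, with a log2 fold change of 0.0094 (adjusted p = 0.928). Neither of these neighbours passed.

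The Igf2r-Airn domain of chromosome 17 holds Igf2r, the receptor that carries IGF2 to lysosomes, and Airn, the paternal noncoding RNA that crosses Igf2r in antisense. Igf2r had 8714 and 8780 counts in WT_CTCF and 8795 and 9004 in MUT_CTCF. Its log2 fold change of 0.019 (SE 0.035) had a 95% interval from -0.051 to 0.090, among the narrowest of the imprinted genes. Airn had 0 counts in 3 libraries and 2 in MUT_CTCF replicate 1, so a change was not detectable at this depth. In the Peg3 domain, the zinc finger gene Peg3 had 249 and 255 counts in WT_CTCF and 197 and 209 in MUT_CTCF, which did not pass (log2 fold change -0.32, SE 0.168, adjusted p = 0.370). Usp29, of the ubiquitin protease family, had 168 and 187 counts in WT_CTCF and 210 and 140 in MUT_CTCF, which lay on either side. Zim1, another zinc finger gene, had at most 5 counts in a library and was not tested.

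The Snrpn domain of chromosome 7 is the mouse counterpart of the Prader-Willi and Angelman region, and its genes other than Ube3a are expressed from the paternal allele. Snrpn, a core protein of the spliceosome, had 3508 and 3376 counts in WT_CTCF and 3556 and 3086 in MUT_CTCF, with a log2 fold change of -0.058 (SE 0.053). Peg12, of the FRAT family of GSK3-binding proteins, had 354 and 375 in WT_CTCF and 435 and 463 in MUT_CTCF, the lowest unadjusted p of the domain (log2 fold change 0.30, SE 0.128, adjusted p = 0.245). Mkrn3, a ubiquitin ligase gene, and Magel2, of the MAGE family, also lay higher in both MUT_CTCF libraries, with log2 fold changes of 0.17 and 0.52 that did not pass. Ndn, another MAGE family gene, lay lower in both, with a log2 fold change of -0.074 (adjusted p = 0.768). Ube3a, the ubiquitin ligase of Angelman syndrome, which is imprinted in neurons, had 229 and 220 counts in WT_CTCF and 264 and 237 in MUT_CTCF (log2 fold change 0.15, adjusted p = 0.746). The 6 genes did not share a direction.

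Several imprinted genes, some of them retrogenes, sit inside a host gene or beside a partner. Mcts2, a retrogene of the Mcts1 family, lies inside H13, the signal peptide peptidase gene, Zrsr1, a splicing factor retrogene, inside Commd1, a gene linked to copper handling, Nap1l5, of the nucleosome assembly protein family, inside Herc3, a ubiquitin ligase gene, and Nnat, which encodes neuronatin, inside Blcap. Within the host and guest pairs the fitted values differed in sign for Mcts2 (0.075) and H13 (-0.13) and for Nap1l5 (-0.052) and Herc3 (0.074). They had the same sign for Zrsr1 (-0.15) and Commd1 (-0.065) and for Nnat (0.11) and Blcap (0.10). The member of each pair with more counts, which need not have the higher level per length, was Commd1, with 2851 and 2640 counts in WT_CTCF and 2533 and 2734 in MUT_CTCF, H13, with 1833 and 1908 against 1618 and 1818, Blcap, with 1731 and 1493 against 1730 and 1746, and Herc3, with 816 and 770 against 920 and 757. None of the 8 genes passed, with adjusted p from 0.369 to 0.973. Commd1 shares 31.6% of its exon positions with other genes, mostly with B3gnt2 on the same strand, and Mcts2 and Zrsr1 resemble parent genes elsewhere, so reads of these 3 may have been divided or dropped in counting.

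Peg10, derived from a retrotransposon and needed for the placenta, had 1297 and 1318 counts in WT_CTCF and 1095 and 1230 in MUT_CTCF (log2 fold change -0.17, SE 0.079, adjusted p = 0.269), and its value was -0.084 without MUT_CTCF replicate 1. Its divergent neighbour Sgce, epsilon-sarcoglycan, had 44 and 37 in WT_CTCF and 50 and 49 in MUT_CTCF, a log2 fold change of 0.28 with a 95% interval from -0.53 to 1.10. Copg2, a subunit of the COPI vesicle coat, had 3409 and 3366 counts in WT_CTCF and 3587 and 3708 in MUT_CTCF (log2 fold change 0.10, adjusted p = 0.318), and Mest, a hydrolase-fold enzyme gene that runs toward it, had 1349 and 1016 in WT_CTCF and 1146 and 1190 in MUT_CTCF. Mest and Copg2 share 23.0% and 20.2% of their exon positions with each other on opposite strands. Whether counting used strand is not given in the sources used here. Impact, a regulator of the GCN2 kinase on chromosome 18, had 3477 and 3566 counts in WT_CTCF and 3254 and 3128 in MUT_CTCF. Both MUT_CTCF libraries lay below both WT_CTCF libraries, and its adjusted p of 0.0985 (log2 fold change -0.15, SE 0.050) was the closest to the threshold after Grb10. Gnas, the stimulatory G protein subunit, had 524 and 554 counts in WT_CTCF and 601 and 617 in MUT_CTCF (log2 fold change 0.17, adjusted p = 0.494), and 22.0% of its exon positions are shared with antisense genes. Trappc9, of a vesicle tethering complex, had 1335 and 1352 in WT_CTCF and 1306 and 1179 in MUT_CTCF (log2 fold change -0.12, adjusted p = 0.494), while the potassium channel gene Kcnk9 had 1 count in WT_CTCF replicate 2 and 0 in the other libraries. The amino acid transporter gene Slc38a4, the zinc finger factor Plagl1, the phosphatase gene Inpp5f and Zdbf2 had log2 fold changes from -0.0041 to 0.19, none of which passed. Rasgrf1, an exchange factor for Ras, had at most 3 counts in a library and was not tested.

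Levels between genes were compared in RPKM. Cd81 was the highest of the 47 imprinted genes, at a mean of 74.0 over the 4 libraries, followed by Snrpn (37.7) and Slc38a4 (34.3), whose libraries ran from 34.7 to 39.6 and from 33.5 to 35.0 and so overlapped. Impact (24.0) and Igf2r (22.9) came next, with libraries from 22.5 to 25.5 and from 22.5 to 23.5, which overlapped too. Grb10 was 14th at 10.6, with 9.40 and 9.94 in WT_CTCF and 11.8 and 11.1 in MUT_CTCF. The growth genes Igf2 (0.396) and Dlk1 (1.04) lay far below, at positions 40 and 36 of 47. At the bottom Rtl1, Zim1, Rasgrf1, Kcnk9 and Airn stayed under 0.1 in every library. A count of 0 allows up to 3 counts, or 0.074 CPM (counts scaled to library size) in the shallowest library, and this limit covers counting error only.

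**Figure D4:**
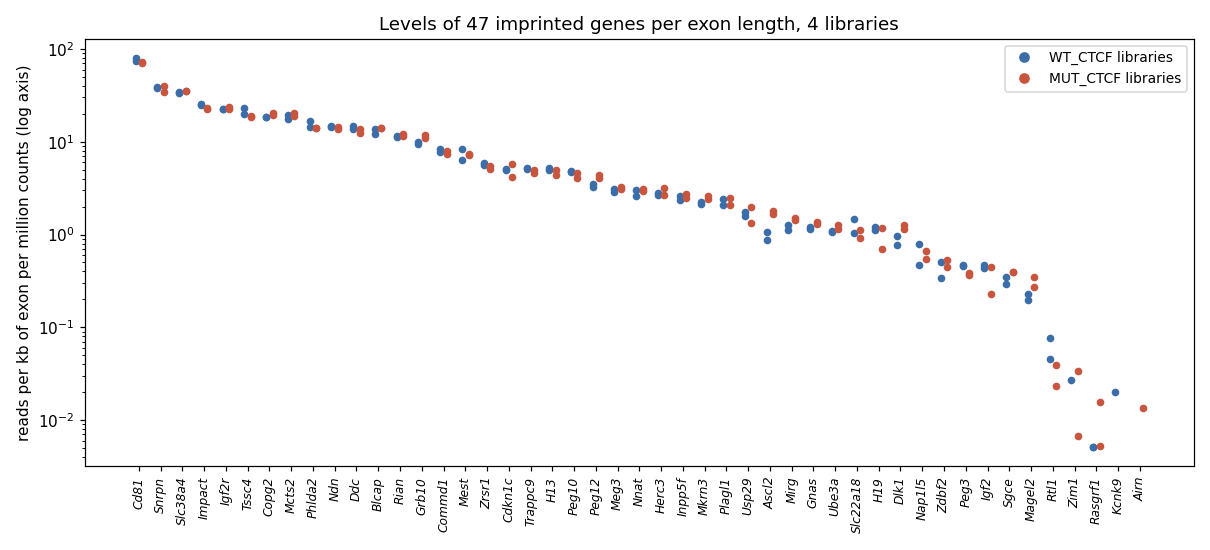
RPKM (vertical log axis) for the 47 imprinted genes found, ordered by mean, with each point 1 library; libraries with 0 counts have no point. The levels run from 74.0 for Cd81 down to 0.0034 for Airn, and within most genes the points of both lines lie close together.

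Sorted by the allele known to be expressed, the genes showed no common direction. The sorting follows general knowledge of each gene, and the expressed allele was not measured in these cells. Genes sorted as maternal or paternal may also be imprinted in some tissues only. The 11 tested maternally expressed genes had a median log2 fold change of -0.021, with 5 estimates above 0 and 6 below. The 21 tested paternally expressed genes had a median of -0.023, with 9 above 0 and 12 below. The 11 genes whose imprinting depends on tissue or isoform had a median of 0.074, with 7 above 0 and 4 below, and Grb10 is one of them. Among imprinted genes with a mean of at least 1000 counts, 1 of 17 was called (5.88%), against 5.91% of the 6461 tested genes of that abundance.

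Other genes close to the imprinted ones were read from the same fit. Within 250 kb of an imprinted gene lay 106 other tested genes, of which 4 passed (3.77%, against 3.17% of all tested genes), and their median log2 fold change was 0.00059. Osbpl5, an oxysterol-binding protein gene 186.2 kb from Phlda2, rose from 137 and 99 counts in WT_CTCF to 191 and 206 in MUT_CTCF (log2 fold change 0.74, SE 0.209, adjusted p = 0.0325). Eif2c2, the Argonaute gene Ago2 near Trappc9, rose by 0.12 on the log2 scale (adjusted p = 0.0219). Ctsd, the lysosomal protease cathepsin D, 187.5 kb from H19, had a log2 fold change of -0.13 (adjusted p = 0.00568), and Eef1b2, an elongation factor gene near Zdbf2, one of -0.10 (adjusted p = 0.00552), so both fell. A list of 46 other genes linked to imprinted domains had 29 tested, of which 2 rose and 1 fell (10.3%, against 3.17% of all tested genes). This list was chosen with earlier results of these data known, so the share is no test of it. Osbpl5 is on it, and so are Dhcr7, the last enzyme of cholesterol synthesis (log2 fold change 0.38, SE 0.058, adjusted p = 7.89e-06), and Dio3, given above. All these calls, like every call in the table, were lost without either MUT_CTCF library. Kcnq1, the potassium channel gene that names its domain, had 10 and 5 counts in WT_CTCF and 12 and 3 in MUT_CTCF and was not tested.

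Factors that keep or set imprints were counted as a list of 23 genes, of which 22 were tested. Of these, 1 rose and 4 fell, or 22.7% against 3.17% of all tested genes and 5.91% of tested genes with a mean of at least 1000 counts. The list also holds genes below that abundance, such as Arid4b with 47 to 79 counts. It was chosen with earlier results of these data known, so the share is no test of the list. Zfp57, a zinc finger protein that binds methylated control regions and protects their methylation, fell from 16001 and 15562 counts in WT_CTCF to 14163 and 13983 in MUT_CTCF (log2 fold change -0.17, SE 0.030, adjusted p = 0.000125). Trim28, the corepressor that ZFP57 recruits, fell by 0.073 in log2 units (adjusted p = 0.0142, SE 0.019). Dnmt3l, a cofactor of the de novo DNA methyltransferases, fell from 3482 and 3544 counts to 2782 and 2733 (log2 fold change -0.36, SE 0.051, adjusted p = 2.89e-06), and it shares exon positions with Aire on the other strand. Eed, a Polycomb subunit, fell by 0.16 (adjusted p = 0.0304), and Ehmt2, the histone methyltransferase G9a, rose by 0.12 (adjusted p = 0.0326). Dnmt1 (0.043) and Uhrf1 (0.039), which copy methylation at replication, did not pass (adjusted p = 0.506 and 0.463).

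Markers of the labelled cell type and of other cells were set beside these values. The 10 pluripotency markers were all present and summed to between 6748 and 6878 CPM in the 4 libraries. Of these, 1 rose (Sox2) and 1 fell (Dppa4), or 20% of the list. The share was 3.17% over all tested genes and 5.91% over tested genes with a mean of at least 1000 counts, which all 10 markers exceeded. The 10 fibroblast markers summed to 48.9 and 50.0 CPM in WT_CTCF and 51.4 and 58.5 in MUT_CTCF, with Lum and Fap at 0 in every library and 1 of 6 tested higher (Fbln2, 16.7%). Of the 6 estimates, 4 were above 0 and 2 below. At an unadjusted p under 0.05 (edgeR) 2 were counted (33.3%, against 15.3% of all tested genes), Fbln2 and Col3a1. Col3a1 was lower in MUT_CTCF, with a log2 fold change of -1.52 (adjusted p = 0.288) and at most 26 counts in a library. The 10 primitive endoderm markers summed to 245.5 and 248.7 in WT_CTCF and 249.1 and 254.5 in MUT_CTCF, with 0 of 8 tested passing. Gata6 and Sox17, or 25% of the 8, had an unadjusted p under 0.05 (edgeR), against 15.3% of all tested genes. Both were higher in MUT_CTCF, with log2 fold changes of 0.95 and 0.75 (adjusted p = 0.0733 and 0.259). Of the 8 estimates, 5 were above 0 and 3 below. The 10 trophectoderm markers summed to between 175.6 and 183.0, with 2 of 10 lower (20%, where 1.61% of all tested genes fell). These were Cdx2, a transcription factor of the trophectoderm, with a log2 fold change of -0.97 (adjusted p = 0.000227), and Krt8, a keratin gene, with one of -0.30 (adjusted p = 0.0319). Of the 10 estimates, 4 were above 0 and 6 below, and Krt18, another keratin gene, lay at 0.086 (adjusted p = 0.830). Each sum follows mainly the markers with most counts. In WT_CTCF replicate 1 Lama1 had 6425 counts and Tfap2c 3749, against 57 for Gata6 and 274 for Cdx2. The marker lists were chosen with earlier results of these data known, so their shares are no test of them. In bulk RNA fewer cells of a type and less RNA per cell cannot be told apart. The part of other cells in the values of the imprinted genes was not tested.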

How the data were processed

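Each line, WT_CTCF and MUT_CTCF, had 2 RNA-seq libraries. The authors used Trim Galore 0.4.4 for trimming, STAR for alignment (mm9) and HTSeq 0.9.1 for counting, and the deposited values are raw counts per gene. The table of the authors' own edgeR comparison (log2 fold change, average log2 expression, p-value and false discovery rate) was not used. GENCODE M1 (mm9) gave gene names, places and merged exon lengths. Genes were kept by filterByExpr (minimum count 10), which left 16264 genes with 99.957% of the counts, scaled by TMM, and tested for the line with the quasi-likelihood functions glmQLFit and glmQLFTest of edgeR 4.0.16 in R 4.3.3. Benjamini-Hochberg adjustment ran over all tested genes. The standard error is the log2 fold change divided by the root of F, and 95% intervals use its t quantile. The fit was tested on simulated data. The imprinted genes, their sorting and all lists were chosen with earlier results of these data known. Values in every library were to be given for H19, Igf2, every called member and the member with the most counts in each domain with 2 or more members; other values for members were added for completeness, as was Ddc. Other settings tried were further scalings and filters, DESeq2 1.42.0, the exact test of edgeR, leaving out single libraries, and a replicate block.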

Additional observations from a re-analysis of the deposited data

How the results depend on the processing

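Grb10 was the 1 imprinted gene called under both other scalings, a minimum of 10 reads per library, edgeR's exact test, DESeq2 and the replicate block, and its adjusted p ran from 0.000118 to 0.484 over all alternatives. No imprinted gene was called without a filter on low counts (0 genes), and 0 to 1 were called with a library left out. A fit without 1 library assumes that the lone library varies like the other group. Over all tested genes, 515 calls became 29 without a filter, 313 with DESeq2, and 0 to 242 with a library left out (0 without either MUT_CTCF library, 193 without WT_CTCF replicate 1). Calls at the study's criterion went from 212 to 117 with that minimum and 126 with DESeq2. Of the genes within 250 kb, 4 calls became 0 without a filter and 0 to 3 with a library left out; these alternatives were chosen after seeing the data. The median over the imprinted genes was 0.018 without a filter, which adds genes with few counts, and -0.0098 to 0.060 with a library left out. Same-numbered libraries did not deviate together (correlation -0.019 across genes), and a replicate block gave 698 calls in all, 1 of them imprinted. Signs changed only for genes that did not pass: Plagl1 was 0.0083 with library size only, and with a library left out the log2 fold changes ran from -0.28 to 0.20 for Cdkn1c, -0.0089 to 0.046 for Igf2r, -0.34 to 0.23 for Usp29, -0.15 to 0.030 for Snrpn, -0.21 to 0.19 for Mest, -0.0003 to 0.21 for Blcap, -0.12 to 0.11 for Plagl1, -0.38 to 0.38 for Nap1l5, -0.063 to 0.20 for Herc3, -0.014 to 0.14 for Inpp5f and -0.063 to 0.49 for Zdbf2.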
